A study of Homo sapiens with 26 samples.

Results

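The TP63 knockdown response of KYSE180 was compared with that of TE6 by taking, for each gene, the log2 fold change of siTP63 over siCont in KYSE180 minus the same fold change in TE6. KYSE180 and TE6 are human esophageal squamous cell carcinoma (ESCC) lines, and the study classes both as positive for BRDT, a testis-specific bromodomain protein that the tumour cells express aberrantly. Each fold change was taken within its own table on the log2(value + 1) scale, and a gene was a member if its mean value was at least 10 in both tables. This rule kept 12711 of 26485 gene symbols, while 1213 genes passed in the KYSE180 table only and 524 in the TE6 table only. In all, 8 of the 26 libraries of the series entered the comparison, 2 in each of 4 groups. KYSE180 siTP63 and TE6 siTP63 cells carried siRNAs against TP63, and KYSE180 siCont and TE6 siCont cells carried a control siRNA. All were harvested 48 hours after transfection in the same medium, and each line stands for 1 tumour. No source says that libraries of 1 group came from separate cultures, so the p-values below measure the spread between these libraries, which may be technical.

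TP63 encodes p63, a transcription factor of the p53 family. Its ΔN isoforms maintain the basal cells of stratified epithelia such as the esophagus, where they sustain basal keratins, hemidesmosomes, desmosomes and proliferation, and squamous carcinomas commonly keep them. Genes that require p63 in 1 squamous line need not do so in another, and the contrast of 2 lines asks which genes and families behave in this way.

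The siRNAs listed by the study are shown because they fix which TP63 transcripts could be targeted, with the bases that pair with the guide seed (positions 12 to 18 of the listed strand, counted from 1 at its 5′ end) in capitals.
Non-targeting siRNA #5: ugguuuacaugUCGACUAa
TP63 #5: caucaugucugGACUAUUu
TP63 #8: cgacagucuugUACAAUUu
TP63 #5 had an exact site in 5 of 14 annotated TP63 transcripts, all within coding sequence (hg38, chr3:189890812-189890830), and TP63 #8 had one in 12 of 14, of which 11 are coding with the site in the coding sequence (chr3:189867849-189867867). The non-targeting siRNA had no exact site in any TP63 transcript, and neither TP63 siRNA had an exact site in a transcript of another gene. Which of the TP63 siRNAs was used for these libraries, and whether it was the same in both lines, is not given in the sources used here.

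The 8 libraries held 7582089 to 17331345 reads, and the replicates of a group correlated at a Pearson r of 0.989 to 0.994 across the genes tested. The sum of size-factor normalised reads was 17307938 and 16565108 in KYSE180 siCont against 12077466 and 11475859 in KYSE180 siTP63, and 11219009 to 11499081 in the 4 TE6 libraries. TP63 itself was normalised to 2573 and 3035 reads in KYSE180 siCont and 794 and 925 in KYSE180 siTP63. In TE6 it fell from 2596 and 2785 to 133 and 112. Within each line, both knockdown libraries lay below both control libraries. The tables of the lines were normalised separately, so their levels are not compared with each other here or below. The knockdown left 30.6% of the control mean in KYSE180 and 4.57% in TE6, so the difference of the log2 fold changes was 2.74 ± 0.17 (SE, adjusted p = 2.6e-08 in limma). Depth of knockdown and cell line move together in this design and cannot be told apart in any result below. BRDT did not pass the test in either line, at 789.6 and 850.1 in KYSE180 siCont against 760.0 and 825 in siTP63 and at 241 and 242 in TE6 siCont against 233 and 220.5 in siTP63.

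**Figure D1:**
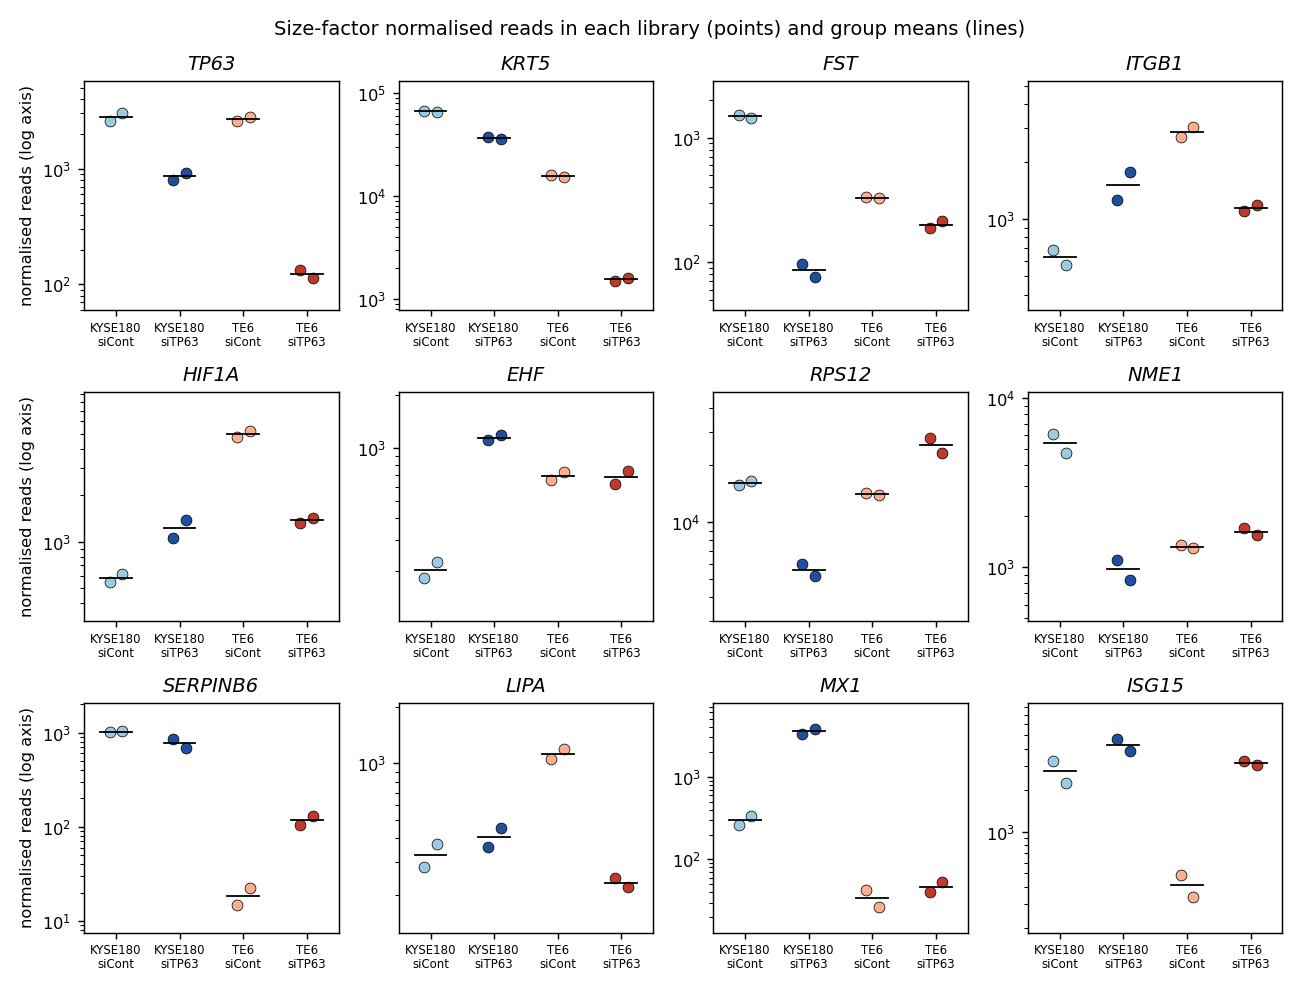
Size-factor normalised reads of 12 genes in each of the 8 libraries (points, log axis), with the mean of each group as a line. TP63 kept 30.6% of its control mean in KYSE180 and 4.57% in TE6, and ITGB1, HIF1A and RPS12 moved in opposite directions in the lines.

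In order to see how many genes depended on the line, genes were called at a limma adjusted p-value under 0.05 and a log2 change of at least 0.5 in size. In KYSE180, 3375 genes (26.6% of those tested) fell and 2936 (23.1%) rose upon TP63 knockdown. In TE6, 2757 (21.7%) fell and 2401 (18.9%) rose. Both lines shared 852 genes that fell (6.70%) and 802 that rose (6.31%), and for 516 genes (4.06%) the direction was shared and the difference was called as well. The difference itself was called for 7041 genes (55.4%), of which 3436 (27.0%) were higher in KYSE180 and 3605 (28.4%) lower. Counts of genes called within a line, in both lines or for the difference in each gene list below are to be read against these shares. Higher or lower in KYSE180 refers, here and below, to this difference of fold changes and not to the level of a gene. A difference in the opposite direction was the strictest form of it. Here 482 genes (3.79%) fell in KYSE180 and rose in TE6, and 567 (4.46%) rose in KYSE180 and fell in TE6. Changes in 1 line only were those called in 1 line, under 0.5 in size and not called in the other, and with a called difference. They comprised 1688 genes down (13.3%) and 1124 up (8.84%) in KYSE180, and 1002 down (7.88%) and 769 up (6.05%) in TE6. A gene of 1 line only can still have moved in the other line by less than 0.5. Across the genes tested the 2 fold changes had a Pearson r of 0.27, which describes genes and not independent replicates.

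**Figure D2:**
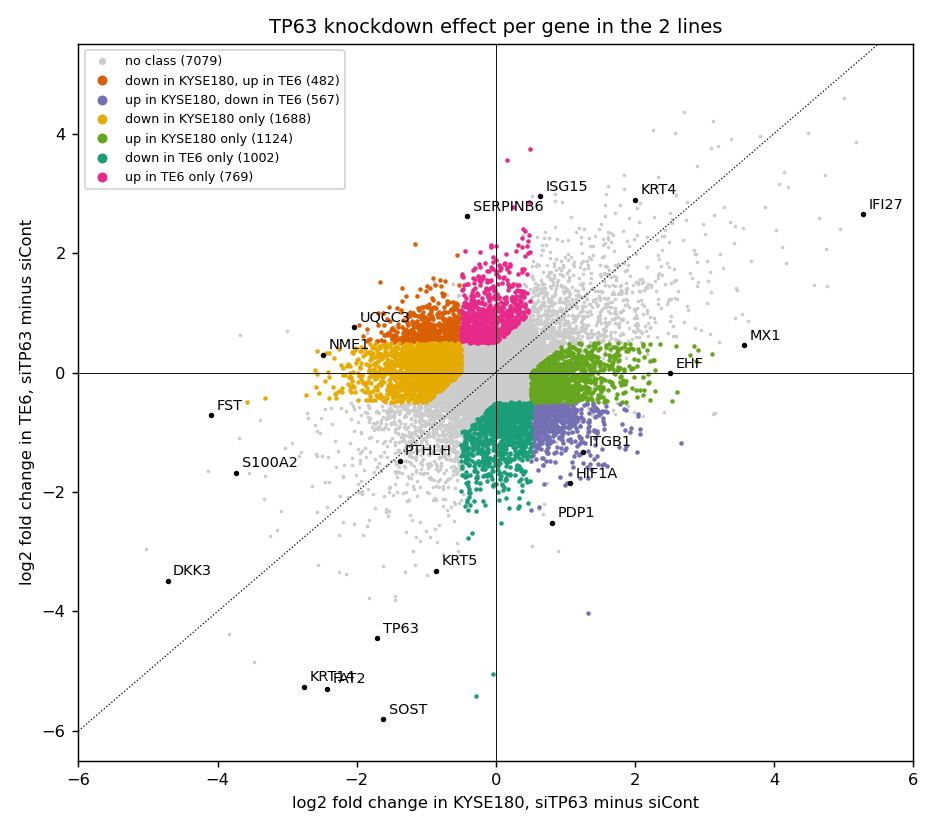
Log2 fold change of siTP63 over siCont in KYSE180 (x axis) and TE6 (y axis) for 12711 genes, coloured by class, with a dotted line of equal change. The opposite classes fill the upper left (482 genes) and lower right (567 genes), and TP63, KRT14, FAT2 and SOST lie far below the line.

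The opposite classes, and to a lesser degree the classes of 1 line, differed from all genes tested in the size and base composition of their transcripts. Genes that fell in KYSE180 and rose in TE6 had a median annotated transcript length of 1888 nt and a median GC content of 56.8%, against 3825 nt and 48.2% over all genes tested. Those that rose in KYSE180 and fell in TE6 were long and AT-rich, at 5789 nt and 40.6%. Genes down in KYSE180 only (2393 nt and 53.1%) and up in TE6 only (2807 nt and 54.8%) leaned towards short and GC-rich. Genes up in KYSE180 only (5357 nt and 44.5%) and down in TE6 only (5522 nt and 41.4%) leaned towards long and AT-rich. The trend ran in opposite directions in the lines. In the shortest of 10 equal bins of transcript length the median log2 fold change was -0.73 in KYSE180 and 0.29 in TE6, and in the longest bin it was 0.32 and -0.31. For GC content, the lowest bin had medians of 0.23 in KYSE180 and -0.40 in TE6 and the highest bin had -0.37 and 0.29. When this trend was fitted and removed in every library, 273 genes fell in KYSE180 and rose in TE6 and 270 did the reverse. Of the genes first placed in these classes, 139 (28.8%) and 206 (36.3%) were placed there again, although the difference was still called in the same direction for 413 and 524 of them. The Pearson r between the lines became 0.41. Whether the trend arose in the cells or in the preparation of the libraries was not tested, so differences with the trend removed are given beside each gene wherever they end a call or move a value by more than 1.5 times. Counts and calls within a line are those before its removal unless stated.

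**Figure D3:**
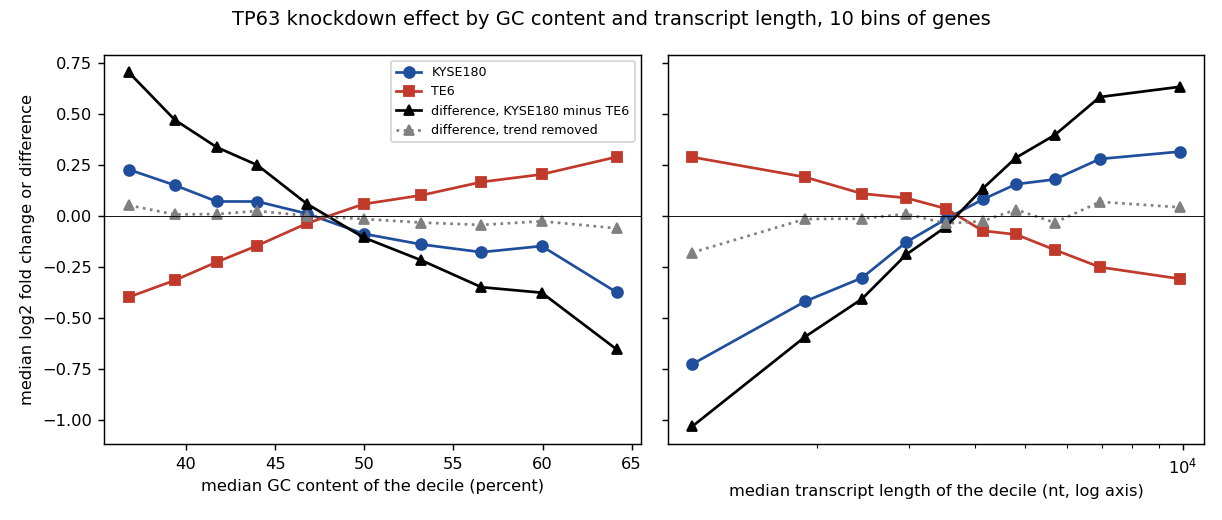
Median log2 fold change of siTP63 over siCont in KYSE180 and TE6, and their difference, in 10 bins of genes by GC content (left) and by transcript length (right, log axis). The difference falls from 0.71 to -0.65 with GC content and rises from -1.03 to 0.63 with length, and lies between -0.18 and 0.07 in all bins once the trend is removed.

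The genes described below fared unequally when the trend was removed. Of 21 that rose in KYSE180 and fell in TE6, 16 were placed in that class again, among them ITGB1, LAMA3, HIF1A, KLF5, TGM1 and SERPINB5. TJP1 was then called in KYSE180 only, COL17A1, RRM2B and SLC39A10 in TE6 only, and SEL1L in neither line. Of 25 that fell in KYSE180 and rose in TE6, only ADM, C12orf45, C7orf50, CSTA, JOSD2 and RPS12 (6 genes) were placed there again. For C12orf45 the removal used its longest annotated transcript, of 23524 nt and 40.9% GC, far from the class medians of 1888 nt and 56.8%. Its difference went from -2.62 to -3.35, and whether a shorter transcript would keep it in the class was not tested. In ATP5D, CRELD2, EBP, MVD, NDUFA13, PSMB10, RPS19, RPS21, UQCC3 and ZNF593 the rise in TE6 was no longer called, and in CRB3, NDUFS6 and SNHG7 the fall in KYSE180 was not. CLDN7, COL9A2, DDIT3, S100A13, TALDO1 and TEAD4 were then called in neither line. Among the genes of 1 line, 12 of 21 that fell and 21 of 24 that rose in KYSE180 only were placed in their class again, as were 20 of 23 that fell and 9 of 17 that rose in TE6 only. GINS2, SDF2L1, SNCG and TPM2 then fell in both lines, MX1, ERAP1, IFI35, OVOL2 and S100A10 rose in both, and EGFR fell in both. SDHD, SERPINB6 and SNHG8 were then opposite. KRT6C was then called in TE6 only and TIMP2 in KYSE180 only.

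Basal and stress keratins fell in both lines, and several fell further in TE6. All 8 of them were called down in each line, with a median log2 fold change of -1.06 in KYSE180 and -1.91 in TE6, and the difference was called for 5, each with the larger fall in TE6. KRT5, a keratin of the basal layer and partner of KRT14, fell from 67254 and 64637 to 36957 and 35825 in KYSE180 and from 15986 and 15149.6 to 1513 and 1604 in TE6. Its log2 fold change was -0.86 ± 0.11 (SE) in KYSE180 and -3.32 ± 0.11 in TE6, a difference of 2.46 ± 0.15 (SE, adjusted p = 1.6e-08). KRT14 was normalised to 36757 and 30744 in KYSE180 siCont, 5564 and 4454 in KYSE180 siTP63, 3320.3 and 3109.5 in TE6 siCont and 77.6 and 88.8 in TE6 siTP63. The groups did not overlap in either line, and KRT14 fell by 2.76 in KYSE180 and fell by 5.26 in TE6 on the log2 scale (difference 2.502 ± 0.17, adjusted p = 4.5e-08). KRT6C, a keratin induced in stressed epithelium, had values of only 25.2 to 128 and a difference of 1.39 ± 0.41 (adjusted p = 0.008), which was 0.82 without KYSE180 siCont replicate 1. FAT2, a giant protocadherin of squamous cells, fell from 385 and 355 to 64.4 and 71.5 in KYSE180 and from 1145 and 1085 to 29.9 and 25.2 in TE6 (difference 2.87 ± 0.22, adjusted p = 7.2e-08). PTHLH, which encodes parathyroid hormone-related protein, fell from 1963 and 2091 to 844 and 713 in KYSE180 and from 935 and 980.2 to 354 and 334 in TE6. Its fold changes of -1.38 and -1.47 differed by 0.09 ± 0.16 (adjusted p = 0.64), and by 0.58 (adjusted p = 9.6e-04) once the trend was removed.

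Several other genes that fell in both lines fell further in KYSE180. FST, the secreted activin antagonist follistatin, fell from 1530.4 and 1433 to 97.4 and 76.3 in KYSE180 but only from 332.3 and 327 to 186 and 215 in TE6. On the log2 scale this was -4.09 ± 0.14 against -0.72 ± 0.14, a difference of -3.37 ± 0.20 (SE, adjusted p = 1.5e-08). S100A2, a calcium-binding protein of squamous epithelium, fell from 54594 and 44618 to 3932 and 3527 in KYSE180 and from 27621 and 26068 to 9026 and 7811 in TE6. Its difference was -2.05 ± 0.17 (adjusted p = 1.5e-07) and -1.09 with the trend removed. NRG1, a ligand of the EGF receptor family, fell by 2.82 in KYSE180 and fell by 1.40 in TE6 on the log2 scale (difference -1.42 ± 0.16, adjusted p = 1.2e-06, and -2.18 with the trend removed). The secreted Wnt antagonists went different ways. DKK3 fell from 2409.7 and 2662 to 100.5 and 90.6 in KYSE180 and from 4421 and 4486 to 396 and 397 in TE6, with a difference of -1.23 ± 0.15 (adjusted p = 3.3e-06). SOST, which encodes sclerostin, fell from 154 and 184 to 50.6 and 58 in KYSE180 and from 541 and 463 to 10.6 and 5.92 in TE6, a difference of 4.19 ± 0.33 (adjusted p = 1.0e-07), so that here the larger fall was that of TE6. In all these genes the values of the control and knockdown libraries were apart in both lines.

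Genes of cell to matrix adhesion were examined next. Integrins are the receptors that tie cells to collagen, laminin and fibronectin, and ITGB1 encodes the β chain shared by most of them (hg38, chr10:32887273-33005792). ITGB1 rose from 684 and 576 in KYSE180 siCont to 1262 and 1769 in siTP63, and fell from 2682 and 3053 to 1101 and 1182 in TE6. No library of 1 group entered the range of the other in either line. The log2 fold change was 1.25 ± 0.14 (SE) in KYSE180 and -1.33 ± 0.14 in TE6 (difference 2.58 ± 0.20, adjusted p = 8.0e-08). ITGA2, a collagen receptor chain, fell in both lines, from 366 and 309 to 178 and 275 in KYSE180 and from 591 and 618 to 98.2 and 117 in TE6 (difference 1.88 ± 0.25, adjusted p = 7.4e-06, and 1.15 with the trend removed). ITGB8, the β chain of a TGF-β-activating integrin, rose in KYSE180 only, from 250.1 and 236 to 516 and 577 (difference 1.58 ± 0.23, adjusted p = 1.9e-05, and 0.75 with the trend removed). Of the 6 integrins outside hemidesmosomes, 4 rose and 2 fell in KYSE180, 1 rose and 2 fell in TE6, and 4 were called higher in KYSE180. The 10 genes of hemidesmosomes and their laminin, the structures that anchor basal cells to the basement membrane, had a median log2 fold change of 0.18 in KYSE180 (0.09 with the trend removed) and -0.65 in TE6. In KYSE180 2 fell and 3 rose, in TE6 6 fell and none rose, and 8 differences were called higher in KYSE180. LAMA3, the α chain of that laminin, rose from 384 and 366 to 646 and 663 in KYSE180 and fell from 417 and 456 to 249 and 239.7 in TE6 (difference 1.63 ± 0.16, adjusted p = 5.3e-07). COL17A1, a transmembrane collagen of hemidesmosomes, was the other opposite member and was named after its values were seen. It rose by 0.53 in KYSE180 and fell by 0.52 in TE6 on the log2 scale. DST, the plakin that links hemidesmosomes to keratin, overlapped in KYSE180 at 2180.1 and 2138 against 1982 and 2313 and fell in TE6 from 3108 and 3459 to 1123 and 1126 (difference 1.53 ± 0.15, adjusted p = 3.6e-07, and 0.84 with the trend removed). ITGA3, a laminin receptor chain, was called in TE6 only, at 1052 and 969 against 567 and 601 (difference 1.16 ± 0.14, adjusted p = 4.0e-06). CD151, a tetraspanin partner of laminin-binding integrins, was the member lower in KYSE180 (-0.95 ± 0.14, adjusted p = 2.8e-05), and this call was lost with the trend removed (-0.11, adjusted p = 0.44).

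Cell to cell junctions followed. Desmosomes are the keratin-anchored junctions of squamous epithelium. Of their 10 genes, 4 fell and 1 rose in KYSE180, 6 fell and none rose in TE6, and the medians were 0.24 and -1.05. With the trend removed the KYSE180 median was 0.005, and the median difference of 0.76 became 0.23. DSG2, a desmosomal cadherin, overlapped in KYSE180 at 1313 and 1470.2 in siCont and 1443 and 1985 in siTP63. It fell in TE6 from 4647 and 5526 to 1762 and 2083 (difference 1.69 ± 0.20, adjusted p = 2.1e-06, and 1.12 with the trend removed). DSC2 and DSP, which encodes desmoplakin, were called down in TE6 only. The difference was 1.57 ± 0.17 for DSC2 (adjusted p = 1.2e-06, and 0.71 with the trend removed) and 1.57 ± 0.15 for DSP (adjusted p = 3.5e-07). PKP3, a plaque protein, went the other way, from 6266 and 4207 to 3382 and 3053 in KYSE180 and from 2178 and 2022 to 2567 and 2794 in TE6. Its difference of -1.03 ± 0.20 (adjusted p = 3.0e-04) fell under the size limit with the trend removed (-0.39). Of 18 tight junction genes, 9 were higher and 4 lower in KYSE180, with medians of 0.43 in KYSE180 and 0.12 in TE6. The scaffold TJP1 rose from 418 and 443 to 796 and 957 in KYSE180 and fell from 935 and 976 to 571 and 661 in TE6 (difference 1.65 ± 0.17, adjusted p = 5.9e-07). CRB3, a small polarity protein, did the reverse, from 1252 and 964 to 791 and 653 and from 359.5 and 342 to 707 and 752 (difference -1.67 ± 0.19, adjusted p = 1.4e-06, and -0.73 with the trend removed). Claudins seal the junction, and 2 of them split in the same way. CLDN4 did not, and rose by 0.53 in KYSE180 and by 1.35 in TE6 on the log2 scale (difference -0.82 ± 0.14, adjusted p = 1.3e-04). CLDN1 rose from 29.9 and 38 to 75.2 and 66.7 in KYSE180 and fell from 107 and 144 to 65.7 and 69.5 in TE6 (difference 1.92 ± 0.31, adjusted p = 6.0e-05), whereas CLDN7 was opposite in the other direction (difference -1.12 ± 0.14, adjusted p = 4.1e-06, under the size limit at -0.39 with the trend removed). Among the large cadherins FAT1 fell in TE6 only, from 1149.8 and 1234 to 473 and 506, and CELSR1 rose in KYSE180 only, from 1035 and 848 to 1508 and 1669 (differences 1.17 ± 0.21 and 1.02 ± 0.17, adjusted p = 1.5e-04 and 6.0e-05, and 0.62 and 0.84 with the trend removed).

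The fold changes of squamous transcription factors other than TP63 were mostly higher in KYSE180 than in TE6. Of 21 tested, 12 rose and 4 fell in KYSE180, 5 rose and 9 fell in TE6, and the difference was higher in 16 and lower in 2. The medians were 0.95 in KYSE180 and -0.41 in TE6, against -0.02 and -0.01 over all genes tested. EHF, an ETS factor of differentiating epithelium, rose from 181 and 225 to 1111 and 1182 in KYSE180, while TE6 had 653 and 727 in siCont and 626 and 743 in siTP63. The KYSE180 groups were far apart and the TE6 groups overlapped (difference 2.52 ± 0.18, adjusted p = 5.6e-08). Among the opposite members were FOXE1 and KLF5, again named after their values were seen, with log2 fold changes of 1.11 and 1.57 in KYSE180 and -0.73 and -0.65 in TE6. The 2 lower members were PITX1 (-1.01 ± 0.20, adjusted p = 4.1e-04) and OVOL2 (-0.86 ± 0.20, adjusted p = 0.0014), and both calls were lost with the trend removed (-0.15 and -0.06, adjusted p = 0.31 and 0.81).

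Differentiation genes above the basal layer split by gene rather than by line. Of 14 tested cornified envelope and suprabasal genes, 3 fell and 5 rose in KYSE180, 3 fell and 8 rose in TE6, and 3 differences were higher and 6 lower in KYSE180. The median difference of -0.44 became 0.30 with the trend removed, so the list as a whole has no direction here. SCEL, which encodes the envelope precursor sciellin, rose from 11 and 18.5 to 169 and 168 in KYSE180 and from 37.8 and 50.8 to 118 and 114 in TE6 (difference 2.09 ± 0.35, adjusted p = 8.9e-05). KRT4, a suprabasal keratin of the esophagus, rose from 720.4 and 1003 to 3647 and 3178 and from 283 and 232 to 1859.8 and 1965 (difference -0.89 ± 0.20, adjusted p = 0.001, lost with the trend removed at -0.32, adjusted p = 0.13). Both genes thus rose in both lines. TGM1, a transglutaminase that cross-links the envelope, rose from 308 and 363 to 518 and 475 in KYSE180 and fell from 150.3 and 137 to 67 and 88.8 in TE6 (difference 1.45 ± 0.22, adjusted p = 3.6e-05). CSTA, the envelope protease inhibitor cystatin A, showed the opposite pattern, from 1259.9 and 1697 to 776 and 685 and from 1400.4 and 1443 to 2312 and 1851 (difference -1.54 ± 0.19, adjusted p = 4.1e-06). SERPINB5, the epithelial serpin maspin, rose from 873 and 808 to 1690.3 and 2008 in KYSE180 and fell from 1049 and 1215 to 723 and 701 in TE6 (difference 1.80 ± 0.16, adjusted p = 2.0e-07).

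Receptors of growth and differentiation signals were next examined. TGFBR2, the type II receptor of TGF-β, rose from 699.9 and 837 to 3092 and 3637 in KYSE180 and stood at 769 and 836 against 668 and 647 in TE6 (difference 2.42 ± 0.16, adjusted p = 4.5e-08). SMAD3, which carries the signal to the nucleus, also rose in KYSE180 only, from 415 and 506 to 894 and 1003 (difference 1.54 ± 0.17, adjusted p = 1.1e-06). Within 20 genes of TGF-β and BMP signalling, 11 rose and 3 fell in KYSE180, and 8 rose and 4 fell in TE6. Of their differences 7 were higher and 4 lower in KYSE180, against 27.0% and 28.4% of all genes. NOTCH3, a receptor of the Notch pathway, rose from 779 and 582 to 1707 and 1934 in KYSE180 and stood at 1907 and 1694 against 1396 and 1574 in TE6 (difference 1.71 ± 0.18, adjusted p = 9.9e-07). Among Notch genes higher in KYSE180, NOTCH2 rose in KYSE180 only, and its ligand JAG1 fell in TE6 only, from 599 and 631 to 303 and 374 (differences 1.44 ± 0.23 and 1.31 ± 0.19, adjusted p = 5.3e-05 and 2.3e-05). For the 14 Notch genes tested, the differences were higher in 4 and lower in 6, against 27.0% and 28.4% of all genes. The lower members included the target HES1, which stood at 1051 and 1038 against 851 and 716 in KYSE180 and rose from 206 and 183 to 294 and 321 in TE6, and its relative HES4 and the glycosyltransferase RFNG, which also rose in TE6 only (differences -1.08 ± 0.17, -1.17 ± 0.19 and -1.11 ± 0.18, adjusted p = 5.3e-05, 7.3e-05 and 6.0e-05). With the trend removed, the difference of HES1 fell under the size limit (-0.41), that of HES4 turned to 0.33 (adjusted p = 0.074), that of RFNG was -0.56, and only 1 Notch gene was lower. RFNG overlaps GPS1 on the other strand, so its counts are uncertain. EGFR was called down in TE6 only, from 718 and 745 to 237 and 210.1, against 1466 and 1295 and 892 and 1094 in KYSE180 (difference 1.23 ± 0.17, adjusted p = 1.4e-05, and 0.76 with the trend removed). The KYSE180 groups were also apart, at a log2 fold change of -0.48 ± 0.12 (limma adjusted p = 0.0026), just under the limit of 0.5. The EGFR ligand EGF rose in KYSE180 only, from 9.44 and 10.3 to 49.1 and 42.9 against 404 and 398 and 305 and 311 in TE6 (difference 2.49 ± 0.26, adjusted p = 6.8e-07). Of the 12 EGF receptor family members and ligands, 5 were higher and 2 lower in KYSE180, against 27.0% and 28.4% of all genes. TEAD factors bind DNA for the growth regulator YAP. TEAD4 fell from 1052 and 1006 to 647 and 617 in KYSE180 and rose from 807 and 806 to 1219 and 1229.6 in TE6 (difference -1.30 ± 0.14, adjusted p = 1.1e-06, under the size limit at -0.47 with the trend removed). TEAD1 fell in TE6 only, from 290.1 and 346 to 158 and 149 (difference 1.36 ± 0.24, adjusted p = 1.3e-04, and 0.71 with the trend removed). The YAP target CYR61 rose in TE6 only, from 102 and 104 to 431 and 481 (difference -1.82 ± 0.20, adjusted p = 1.1e-06). AXL, a receptor kinase induced by YAP, fell in TE6 only (difference 1.38 ± 0.30, adjusted p = 7.7e-04). Of the 15 genes of this group 8 were higher and 3 lower in KYSE180.

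Among Wnt genes besides SOST and DKK3, the non-canonical ligand WNT5A rose in KYSE180 only, from 431 and 384 to 1249 and 1426 against 415 and 469 and 403 and 471 in TE6 (difference 1.73 ± 0.18, adjusted p = 5.7e-07). WNT11 fell in KYSE180 only, from 217 and 181 to 33 and 38.1 (difference -2.31 ± 0.37, adjusted p = 4.8e-05). Of 13 Wnt ligands and antagonists 4 were higher and 4 lower in KYSE180, near the 27.0% and 28.4% of all genes. The median difference of -0.26 became 0.53 with the trend removed. Immediate early and AP-1 genes record the activity of the MAP kinase pathway. Of 15, 3 fell and 5 rose in KYSE180, 7 fell and 3 rose in TE6, and 7 differences were higher and 1 lower. DUSP4, a phosphatase that silences MAP kinases in the nucleus, rose from 20.4 and 13.3 to 70.6 and 72.3 in KYSE180 and fell from 146 and 151 to 90.2 and 88.8 in TE6 (difference 2.77 ± 0.32, adjusted p = 1.9e-06). IER3 fell in TE6 only, from 804 and 797 to 217 and 195 against 661 and 789.5 and 639.6 and 597 (difference 1.73 ± 0.17, adjusted p = 4.3e-07, and 2.65 with the trend removed). CXCL8, the neutrophil chemokine IL-8, rose from 18.9 and 12.3 to 44.5 and 46.9 in KYSE180 and fell from 88.8 and 113 to 31.2 and 53.3 in TE6 (difference 2.79 ± 0.42, adjusted p = 2.8e-05). Of the 11 NF-κB linked cytokine and chemokine genes tested, 9 rose and none fell in KYSE180, while 3 rose and 2 fell in TE6. TNFAIP2 rose in KYSE180 only, and ICAM1, the leukocyte adhesion molecule, rose in both lines and further in TE6 (differences 1.18 ± 0.16 and -1.497 ± 0.36, adjusted p = 1.0e-05 and 0.0019).

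Cytoskeletal and matrix genes were called in both directions. Of 22 genes of actin stress fibres, 10 differences were higher and 7 lower in KYSE180, against 27.0% and 28.4% over all genes, so that the lower share was near that of all genes. In KYSE180 5 of them rose and 2 fell, against 23.1% and 26.6% of all genes. In TE6 2 rose and 4 fell, against 18.9% and 21.7%. The rises in KYSE180 and the falls in TE6 were thus near the shares of all genes. Vinculin (VCL), which couples integrins to actin, rose in KYSE180 only, from 978 and 1026 to 2473 and 3105 against 1619 and 1491 and 1196 and 1209 in TE6 (difference 1.84 ± 0.16, adjusted p = 1.6e-07). CALD1, which encodes caldesmon, rose in KYSE180 only, while the tropomyosin TPM2 fell in KYSE180 only (differences 1.71 ± 0.20 and -1.35 ± 0.26, adjusted p = 2.0e-06 and 3.0e-04, and -0.58 for TPM2 with the trend removed). COL4A1, a chain of basement membrane collagen, overlapped in KYSE180 at 676 and 611 against 599.7 and 744 and fell in TE6 from 1836 and 1749 to 516 and 596 (difference 1.75 ± 0.17, adjusted p = 4.6e-07). COL9A2 was opposite, from 151 and 143 to 102 and 81.8 and from 65.9 and 43.9 to 72.3 and 104 (difference -1.35 ± 0.32, adjusted p = 0.0017, and -0.80 with the trend removed). Of 22 collagen chains tested, 8 differences were higher and 1 lower in KYSE180. Urokinase (PLAU), a protease that activates plasmin, rose in KYSE180 only, from 69.2 and 96.5 to 235 and 245 (difference 1.79 ± 0.32, adjusted p = 1.5e-04), and the inhibitor TIMP2 rose in both lines, from 311 and 382 to 1344 and 1352 and from 179 and 169 to 238 and 278 (difference 1.40 ± 0.19, adjusted p = 7.7e-06). The membrane protease MMP14 rose in KYSE180 only (difference 1.03 ± 0.27, adjusted p = 0.0035), and the difference was 0.60 without TE6 siTP63 replicate 2. Of the 8 genes of this protease group 4 were higher and 1 lower in KYSE180.

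Members of the lists of simple keratins, epithelial-mesenchymal genes, serpins and S100 proteins are given next. KRT8 and KRT18, the pair of simple epithelia, fell in KYSE180 only, KRT8 from 32319 and 23882 to 16628 and 12719.9 against 13015 and 11391 and 12658 and 12761 in TE6 (differences -0.996 ± 0.21 and -1.12 ± 0.17, adjusted p = 5.8e-04 and 3.6e-05, and -0.65 and -0.53 with the trend removed). KRT80 rose in both lines, from 140.0 and 97.5 to 1209 and 1231 and from 228 and 242 to 1309 and 1398 (difference 0.85 ± 0.20, adjusted p = 0.0017). The median difference of the 6 simple keratins, -0.37, became 0.57 with the trend removed. CDH1, the epithelial cadherin, rose in KYSE180 only, from 2059 and 2121 to 4144 and 4765 against 912 and 966 and 1001 and 919 in TE6 (difference 1.06 ± 0.15, adjusted p = 1.2e-05). Of the 12 epithelial-mesenchymal genes 3 were higher and 2 lower in KYSE180, against 27.0% and 28.4% of all genes. SERPINB6, an intracellular inhibitor of granule proteases, was one of the largest differences among the lists. It was not called in KYSE180, at 1018 and 1032 against 861 and 689.6, and rose in TE6 from 14.9 and 22.4 to 105 and 130.2 (difference -3.02 ± 0.26, adjusted p = 1.5e-07). S100A10, a partner of annexin A2, rose in TE6 only, from 2361 and 2306 to 6832 and 6790.2, and S100A13 was opposite (differences -1.67 ± 0.17 and -1.39 ± 0.16, adjusted p = 6.8e-07 and 1.9e-06, and -0.75 and -0.84 with the trend removed). Of the 12 S100 list genes, 1 was higher and 4 lower in KYSE180 (6 and 3 with the trend removed), and the median difference of -0.25 became 0.42 with the trend removed.

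Of the lists examined, ribosomal proteins and respiratory chain subunits each held 25 opposite genes, more than any other list. They were also the largest lists, at 82 and 78 genes tested. All of these opposite genes fell in KYSE180 and rose in TE6, as did 3.79% of all genes. Ribosomal proteins build the 2 subunits of the cytoplasmic ribosome, and their mRNAs commonly begin with a run of pyrimidines, the TOP sequence, through which growth signals control their translation. In KYSE180, 80 of 82 tested ribosomal protein genes fell and none rose. In TE6, 26 rose and 2 fell. The difference was lower in KYSE180 for 80 and higher for 1, and 25 genes were opposite. Their median log2 fold change was -1.29 in KYSE180 and 0.41 in TE6, and the median difference of -1.68 became -1.22 with the trend removed. The TE6 median was then 0.22, with 15 genes rising in TE6 and 14 opposite. The 84 genes took 10.5% and 11.4% of all reads in KYSE180 siCont and 6.66% and 6.01% in KYSE180 siTP63, against 11.1% and 10.8% in TE6 siCont and 15.2% and 13.8% in TE6 siTP63. Many of these genes have near-identical processed pseudogenes, and how the counting treated shared reads is not given in the sources used here.

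The first 30 bases of the 3 ribosomal protein genes lower in KYSE180 by the largest differences, and of the 1 that was higher, are shown with the opening pyrimidine run in capitals (RefSeq, GRCh38.p14).
RPS12: CTCTTTCCCTgccgccgccgagtcgcgcgg
RPS19: CCCTTTCCCCTggctggcagcgcggaggcc
RPS21: CCTTTCTCTCTCgcgcgcggtgtggtggca
RPL7L1: gtagctaggagcggacgccataggtgcatt
RPS12 lies at chr6:132814569-132814598, RPS19 at chr19:41860255-41860284, RPS21 at chr20:62387103-62387132 and RPL7L1 at chr6:42879616-42879645, all on the plus strand. A start with C and 4 further pyrimidines was found in 43 of the 67 ribosomal protein genes whose start was in the table (64.2%), against 5.44% of the 10219 tested genes with a start. RPS12 went from 15608 and 16515 to 6001 and 5182 in KYSE180 and from 14163 and 13807 to 27862 and 23027 in TE6. The direction was opposite with no overlap between groups, at a difference of -2.38 ± 0.17 (adjusted p = 4.5e-08, and -1.41 with the trend removed). RPS19 fell from 87396 and 71896 to 29573 and 23135 and rose from 30424 and 27652 to 52947 and 48286 (difference -2.40 ± 0.20, adjusted p = 1.5e-07). RPS21 showed a difference of -2.37 ± 0.16 (adjusted p = 4.5e-08, and -1.38 with the trend removed). RPL7L1, a nucleolar paralogue of RPL7 without the TOP-like start, had 363 and 301 and 248 and 289 reads in KYSE180 and fell from 309 and 296 to 135 and 182 in TE6. Its difference of 0.64 ± 0.22 (adjusted p = 0.02) was lost with the trend removed (0.38, adjusted p = 0.13). It was also lost in limma without KYSE180 siCont replicate 2 (0.51), KYSE180 siTP63 replicate 2 (0.53), TE6 siCont replicate 1 (0.61) or TE6 siTP63 replicate 1 (0.43).

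Nuclear genes of the mitochondrial respiratory chain moved with the ribosome. Of 78 tested, 69 fell and none rose in KYSE180, 26 rose and 2 fell in TE6, and 25 were opposite. These 25 hold both ATP5E and its pseudogene ATP5EP2, and how reads shared between such copies were counted is not given in the sources used here. The median fold changes were -0.999 and 0.27, and their median difference of -1.32 became -0.76 with the trend removed. Then 47 fell in KYSE180 (median -0.67), 13 rose in TE6 and 9 were opposite in this direction. ATP5D, a subunit of ATP synthase, fell from 8019 and 5621 to 2556 and 2008 in KYSE180 and rose from 1925 and 1549.6 to 3223 and 3217 in TE6 (difference -2.47 ± 0.21, adjusted p = 1.6e-07, and -1.498 with the trend removed). NDUFS6 and NDUFA13, both subunits of complex I, had differences of -2.24 ± 0.16 and -2.23 ± 0.21 (adjusted p = 4.5e-08 and 3.3e-07), which became -1.07 and -1.16. SDHD, a membrane anchor of complex II, was the single member higher in KYSE180, at 324 and 428 against 489 and 476 there and a fall from 651 and 747 to 372 and 373 in TE6 (difference 1.28 ± 0.19, adjusted p = 2.4e-05). TOP-like starts were found in 8 of the 63 genes of this list with a start (12.7%).

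Small nucleolar RNAs, which guide the modification of ribosomal RNA, are carried in introns of host genes such as the SNHG family. Of 14 host and growth-arrest lncRNA genes tested, 10 fell and 1 rose in KYSE180, none fell and 5 rose in TE6, and 12 differences were lower in KYSE180. Their median difference was -1.34, and -1.14 with the trend removed. SNHG7 fell from 2867 and 2257 to 1442 and 1415 in KYSE180 and rose from 743 and 681 to 1557 and 1631 in TE6 (difference -1.99 ± 0.16, adjusted p = 1.2e-07, and -1.24 with the trend removed). SNHG8 and SNHG16 fell in KYSE180 only (differences -1.87 ± 0.19 and -1.68 ± 0.15, adjusted p = 5.3e-07 and 2.5e-07). NEAT1, the architectural RNA of paraspeckles, was the member higher in KYSE180, from 3809.6 and 4418 to 9816 and 10912 against 1562 and 1583 and 1269.9 and 1359.8 in TE6 (difference 1.59 ± 0.15, adjusted p = 2.7e-07, and 0.99 with the trend removed).

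**Figure D4:**
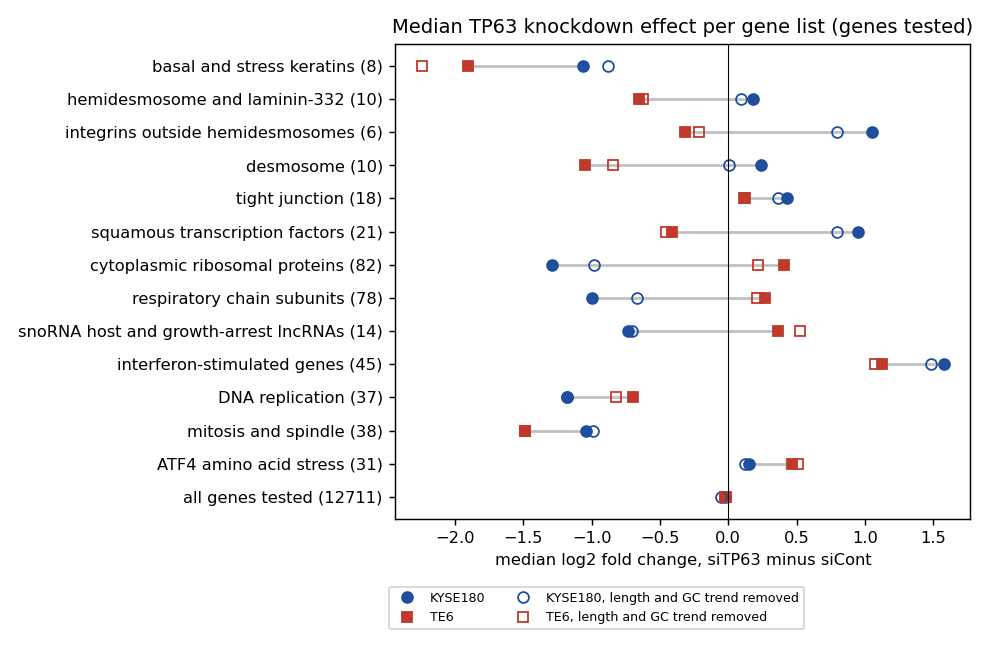
Median log2 fold change of siTP63 over siCont in KYSE180 (circles) and TE6 (squares) for 13 gene lists and all genes tested, with open symbols for values freed of the trend on length and GC content. Ribosomal proteins lie at -1.29 in KYSE180 and 0.41 in TE6, and the order of the lines within each list drawn as filled symbols was kept by the open symbols.

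Among single genes with a mean of at least 100 in each table, the 5 largest opposite differences of each kind were taken. PDP1, the phosphatase that activates pyruvate dehydrogenase, rose from 330.3 and 368 to 563 and 659 in KYSE180 and fell from 1861 and 2257 to 356 and 361 in TE6. The difference of 3.32 ± 0.18 (SE, adjusted p = 1.1e-08) comprised a log2 fold change of 0.80 in KYSE180 and -2.51 in TE6. HIF1A, the oxygen-regulated transcription factor (hg38, chr14:61695513-61748259), rose from 544 and 616 to 1059 and 1389 and fell from 4726 and 5178 to 1326 and 1412. The groups were apart in both lines, with log2 fold changes of 1.07 and -1.85 (difference 2.92 ± 0.17, adjusted p = 1.5e-08). ZBTB38, a methyl-CpG-binding zinc finger protein, rose from 131 and 134 to 390.4 and 532 and fell from 506 and 570.2 to 233 and 220.5 (difference 3.02 ± 0.21, adjusted p = 4.5e-08). MORC3, a nuclear ATPase, and SLC39A10, a zinc importer, had differences of 2.97 ± 0.24 and 2.87 ± 0.28 (adjusted p = 1.2e-07 and 4.1e-07). All 5 transcripts had a GC content under the median of the genes tested, and the differences with the trend removed were 2.88 for PDP1, 2.36 for HIF1A, 2.31 for ZBTB38, 2.39 for MORC3 and 2.17 for SLC39A10.

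In the other opposite class, UQCC3, an assembly factor of respiratory complex III, fell from 3945 and 2615 to 946 and 649 in KYSE180 and rose from 661 and 599 to 1087 and 1040.2 in TE6 (difference -2.79 ± 0.24, adjusted p = 1.6e-07). ZNF593, a zinc finger protein of ribosome assembly, fell from 2378 and 1647 to 617 and 412 and rose from 505 and 483 to 874 and 843 (difference -2.77 ± 0.24, adjusted p = 1.6e-07, and -1.54 with the trend removed). C7orf50 fell from 12888 and 8471 to 3508 and 2969 and rose from 1497 and 1428 to 2949.8 and 2916 (difference -2.70 ± 0.21, adjusted p = 8.0e-08). C12orf45 and the deubiquitinase JOSD2 had differences of -2.62 ± 0.17 and -2.62 ± 0.24 (adjusted p = 2.6e-08 and 2.5e-07), with -1.25 for JOSD2 once the trend was removed. UQCC3, ZNF593, C7orf50 and C12orf45 each overlap a gene on the other strand, and the counting was not stated to use strand, so their values are uncertain. This limit is not particular to them. Of all annotated genes tested, 61.9% overlap another gene on either strand, and CRB3, DDIT3 and ERAP1 are among other described genes with an overlap on the other strand.

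Genes that moved in KYSE180 alone included SNCG, NME1 and CCDC85B. SNCG, which encodes γ-synuclein, fell from 1013 and 788 to 76.7 and 70.7 in KYSE180, with 320.0 and 260.1 against 203 and 206 in TE6. The TE6 groups were also apart, but at a log2 fold change of -0.50 ± 0.15, just inside the limit of 0.5 (difference -3.09 ± 0.21, adjusted p = 4.5e-08, and -1.93 with the trend removed). NME1, a nucleoside diphosphate kinase, fell from 6119 and 4739 to 1101 and 843, with 1343 and 1289 and 1692 and 1540.3 in TE6 (difference -2.78 ± 0.19, adjusted p = 4.5e-08). It shares sequence with a read-through gene of NME1 and NME2, so its counts are uncertain. CCDC85B, a coiled-coil protein, and C17orf89 had differences of -2.93 ± 0.27 and -2.64 ± 0.15 (adjusted p = 2.4e-07 and 1.5e-08), which became -1.48 and -1.40. On the rising side, the Nogo receptor homologue RTN4RL1 went from 58.2 and 44.1 to 376 and 340.0 in KYSE180 and the GATA-like repressor TRPS1 from 37.7 and 62.6 to 198 and 205. In TE6 these genes stood at 216 and 169 against 224 and 243 and at 288 and 359 against 265 and 222 (differences 2.51 ± 0.24 and 2.43 ± 0.28, adjusted p = 3.9e-07 and 2.2e-06).

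In TE6 alone, the endocytic receptor LRP12 fell from 575 and 637 to 95.5 and 115, with 145 and 156 and 155 and 163 in KYSE180, where the groups overlapped (difference 2.59 ± 0.21, adjusted p = 1.1e-07). LIPA, the lysosomal acid lipase, fell from 1054 and 1196 to 246 and 220.5 against 283 and 374 and 360.5 and 454 in KYSE180 (difference 2.58 ± 0.21, adjusted p = 1.2e-07). EFR3A, a plasma membrane adaptor of a lipid kinase, and UHMK1, a kinase of splicing factors, had differences of 2.56 ± 0.20 and 2.37 ± 0.22 (adjusted p = 8.0e-08 and 2.6e-07). UHMK1 stood at 1.499 with the trend removed. The 4 leading genes that rose in TE6 alone were STYXL1, NR1H3, AAMDC and CHMP4A. STYXL1, a catalytically inactive phosphatase, rose from 199 and 219.6 to 879 and 826, with 1186 and 1237 and 1147 and 934 in KYSE180 (difference -2.25 ± 0.17, adjusted p = 6.9e-08). NR1H3, the sterol sensor LXRα, rose from 105 and 93 to 309 and 291 against 788 and 711 and 577 and 507 (difference -2.06 ± 0.18, adjusted p = 1.8e-07). AAMDC and the membrane scission factor CHMP4A had differences of -2.05 ± 0.22 and -2.04 ± 0.16 (adjusted p = 1.1e-06 and 9.9e-08), and -1.12 and -1.21 with the trend removed.

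Interferon-stimulated genes (ISGs) are the antiviral effectors that type I interferon induces through the ISRE motif. Of 45 tested, 41 rose and none fell in KYSE180, 34 rose and 1 fell in TE6, and 31 rose in both. The difference was higher in KYSE180 for 26 and lower for 7, and the medians were 1.58 in KYSE180 and 1.12 in TE6. The 54 listed genes took 0.221% and 0.243% of reads in KYSE180 siCont and 0.723% and 0.760% in siTP63, and 0.356% and 0.327% in TE6 siCont and 1.04% and 0.982% in siTP63. An exact ISRE core, read as GAAA, any 2 bases and GAAA, or as TTTC, any 2 bases and TTTC for the other strand, lay in the promoter (250 bases before to 50 after the gene start) of 25 of the 37 ISGs in the table (67.6%), against 2.62% of the 10219 tested genes with a promoter and 3.65% of all 27305 promoters in the table. The cores of MX1 and IFI27, which rose further in KYSE180, and of ISG15, which rose further in TE6, are shown in capitals as plus-strand sequence from RefSeq (GRCh38.p14).
MX1 (chr21:41420559-41420588, the core starts 11 bases past the gene start): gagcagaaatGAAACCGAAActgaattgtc
IFI27 (chr14:94110486-94110735, the 250 bases before the gene start): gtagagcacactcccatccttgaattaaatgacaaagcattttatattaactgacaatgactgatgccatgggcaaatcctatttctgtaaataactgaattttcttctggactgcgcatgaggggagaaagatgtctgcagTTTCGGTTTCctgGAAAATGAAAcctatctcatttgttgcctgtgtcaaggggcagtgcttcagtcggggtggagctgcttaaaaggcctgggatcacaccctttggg
ISG15 (chr1:1013247-1013496, the 250 bases before the gene start): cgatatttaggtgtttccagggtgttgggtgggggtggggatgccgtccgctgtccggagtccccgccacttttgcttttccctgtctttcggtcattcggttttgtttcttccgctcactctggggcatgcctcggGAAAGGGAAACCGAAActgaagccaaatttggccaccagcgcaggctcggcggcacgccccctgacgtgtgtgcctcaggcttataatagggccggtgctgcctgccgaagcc
MX1, a GTPase that traps viral nucleocapsids, rose from 261 and 337 to 3312 and 3781 in KYSE180. In TE6 the groups overlapped, at 42.2 and 26.7 in siCont and 40.5 and 53.3 in siTP63 (difference 3.12 ± 0.28, adjusted p = 2.2e-07). IFI27 rose in both lines, from 33 and 55.4 to 1709 and 1696 in KYSE180 and from 6461 and 5501 to 41831 and 33711 in TE6 (difference 2.63 ± 0.24, adjusted p = 2.5e-07). ISG15, a ubiquitin-like modifier, rose from 3286 and 2273 to 4681 and 3844 in KYSE180 and from 488 and 340.2 to 3251 and 3066 in TE6. Here the larger rise was that of TE6 (difference -2.32 ± 0.24, adjusted p = 5.6e-07, and -1.08 with the trend removed). BST2, the virus tether tetherin, rose in TE6 only, from 7227 and 6265 to 17744 and 16421 against 9376 and 9058 and 8439 and 7921 in KYSE180 (difference -1.52 ± 0.15, adjusted p = 5.1e-07, which just missed the size limit at -0.50 with the trend removed). IFI35 likewise rose in TE6 only, with a difference of -1.71 ± 0.16 (adjusted p = 2.8e-07, and -0.75 with the trend removed). IFIT2, which binds viral RNA, rose from 64.5 and 76 to 407 and 416 in KYSE180 and stood at 280.4 and 301 against 173 and 250.1 in TE6 (difference 3.02 ± 0.24, adjusted p = 9.9e-08). Its TE6 log2 fold change of -0.48 was just under the size limit. IFIT2 overlaps LIPA on the other strand, and without a strand setting their reads cannot be told apart. IFI16 was the ISG that fell in TE6 (log2 fold change -1.20), named after its values were seen.

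Genes that load peptides on MHC class I, another interferon-regulated set, gave 7 rising and 1 falling of 15 in KYSE180 and 9 rising and none falling in TE6. Differences were higher in 3 and lower in 5, against 27.0% and 28.4% of all genes. ERAP1, which trims the peptides, rose in KYSE180 from 138 and 130.4 to 338 and 376 against 153 and 184 and 205 and 203 in TE6 (difference 1.12 ± 0.21, adjusted p = 1.8e-04, and 0.50 with the trend removed). The immunoproteasome subunit PSMB10 fell from 2127 and 1379 to 742 and 470.3 in KYSE180 and rose from 511 and 478 to 784 and 774 in TE6 (difference -2.19 ± 0.26, adjusted p = 2.9e-06, and -1.06 with the trend removed). PSMB9 rose in TE6 only, from 141 and 139 to 335 and 308 (difference -1.05 ± 0.18, adjusted p = 9.2e-05).

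Proliferation genes fell in both lines, with DNA replication weighted towards KYSE180 and mitosis towards TE6. Of 37 DNA replication genes, 35 fell in KYSE180 and 26 in TE6, none rose, and 18 differences were lower and 6 higher in KYSE180. The medians were -1.18 in KYSE180 and -0.70 in TE6. With the trend removed, 35 fell in KYSE180 and 33 in TE6, and 12 differences were lower and 3 higher. The median difference of -0.46 then became -0.31. GINS2, a subunit of the replicative helicase complex, fell from 7047 and 6489.7 to 1529 and 1233 in KYSE180 and stood at 844 and 834 against 657 and 587 in TE6 (difference -1.87 ± 0.16, adjusted p = 1.6e-07). Its TE6 log2 fold change was -0.43, under the limit. MCM5, of the same helicase, and CDC45, its activator, had differences of -1.34 ± 0.17 and -1.25 ± 0.16 (adjusted p = 4.7e-06 and 5.4e-06), with -0.71 for CDC45 once the trend was removed. POLA1, the catalytic subunit of the polymerase that primes DNA synthesis, fell in both lines and further in TE6 (difference 0.98 ± 0.23, adjusted p = 0.0017), a call that was lost with the trend removed (0.39, adjusted p = 0.099). Of 38 mitosis and spindle genes, 30 fell in KYSE180 and all 38 in TE6, 21 differences were higher and 6 lower in KYSE180, and the medians were -1.04 and -1.48. With the trend removed, 17 differences were higher and 3 lower, and the median difference of 0.68 became 0.43. ANLN, a scaffold of the contractile ring, overlapped in KYSE180 at 1098 and 943 against 949 and 1190.1 and fell in TE6 from 1690.5 and 1999 to 506 and 559 (difference 1.85 ± 0.18, adjusted p = 4.2e-07). ECT2, the exchange factor that starts cytokinesis, and HMMR, a spindle protein, had the same pattern (differences 1.91 ± 0.18 and 1.85 ± 0.20, adjusted p = 3.2e-07 and 9.6e-07). PTTG1, the securin that holds separase inactive, fell from 8802 and 8621 to 1823 and 1549 in KYSE180 and from 3072 and 3016 to 2119 and 1938 in TE6 (difference -1.79 ± 0.15, adjusted p = 1.3e-07, and -0.95 with the trend removed). CCNB2, a mitotic cyclin, had a difference of -0.72 ± 0.14 (adjusted p = 3.6e-04). AURKB, the kinase of the chromosomal passenger complex, had a difference of -0.72 ± 0.15 (adjusted p = 4.5e-04), which turned to 0.17 (adjusted p = 0.27) with the trend removed. In these bulk libraries fewer dividing cells and less RNA per cell cannot be told apart.

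Stress and metabolic programmes were mixed. ATF4 induces amino acid synthesis and transport when amino acids are short. Of 31 such genes, 7 rose and 4 fell in KYSE180, 14 rose and 4 fell in TE6, and 15 differences were lower and 5 higher in KYSE180. PHGDH, the first enzyme of serine synthesis, overlapped in KYSE180 at 9156 and 8742 against 9413 and 8230.5 and rose in TE6 from 3706 and 3331 to 9281 and 9674 (difference -1.45 ± 0.15, adjusted p = 6.4e-07). NUPR1, a stress-induced chromatin protein, rose in TE6 only, from 344 and 258 to 1273 and 1113 (difference -1.54 ± 0.25, adjusted p = 6.5e-05). DDIT3, the stress factor CHOP, fell from 538 and 499 to 337 and 271 in KYSE180 and rose from 206 and 212 to 394 and 330.0 in TE6 (difference -1.56 ± 0.20, adjusted p = 4.3e-06, and -0.71 with the trend removed). CTH, which makes cysteine, was called up in KYSE180 only, from 151 and 259.8 to 730.1 and 785 (difference 1.46 ± 0.27, adjusted p = 1.8e-04). Its TE6 log2 fold change of 0.47 was just under the limit. NRF2 drives antioxidant genes. Of its 29 targets tested, 16 fell and 3 rose in KYSE180, and 13 fell and 4 rose in TE6. Differences were higher in KYSE180 for 6 and lower for 9, against 27.0% and 28.4% of all genes. TXNRD1, thioredoxin reductase, rose from 3047 and 3451 to 5758 and 7253 in KYSE180 and fell from 7169 and 7812 to 4688 and 4688 in TE6 (difference 1.67 ± 0.16, adjusted p = 4.4e-07). GCLC, which makes the first step of glutathione synthesis, fell in TE6 only, from 10066 and 10378 to 4297 and 4446 (difference 1.57 ± 0.14, adjusted p = 2.4e-07). PIR fell in KYSE180 only, from 1027 and 1015 to 436 and 372, and TALDO1, an enzyme of the pentose phosphate pathway, was opposite, from 12737 and 10541 to 7852 and 6090.2 and from 5934 and 5395 to 9122 and 8832 (differences -1.70 ± 0.16 and -1.41 ± 0.18, adjusted p = 3.6e-07 and 5.0e-06, and -0.98 and -0.52 with the trend removed).

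Further metabolic and secretory lists held opposite members as well. These were 1 of 29 and 2 of 32, all down in KYSE180, and 2 of 21, 1 in each direction. Over all genes, 3.79% were opposite and down in KYSE180, and 4.46% were opposite and up there. Of 29 genes of glycolysis and hypoxia, 17 fell and 1 rose in KYSE180, and 12 fell and 1 rose in TE6. Of them 7 fell in both, against 6.70% of all genes. TPI1, a glycolytic isomerase, fell in KYSE180 only, from 24342 and 24562 to 10899.6 and 9616 against 6746 and 6555 and 7113 and 6582 in TE6 (difference -1.30 ± 0.15, adjusted p = 1.8e-06, and -0.56 with the trend removed). The vascular peptide ADM, which encodes adrenomedullin, was opposite, from 1313 and 1259.8 to 729 and 652 and from 265 and 219 to 428 and 475 (difference -1.80 ± 0.17, adjusted p = 3.6e-07, and -1.08 with the trend removed). VEGFA, the angiogenic factor, rose in KYSE180 only, with a difference of 0.78 ± 0.16 (adjusted p = 6.1e-04) that fell under the size limit at 0.44 with the trend removed. In cholesterol and fatty acid synthesis, 10 of 32 genes were higher and 8 lower in KYSE180, near the 27.0% and 28.4% of all genes. EBP and MVD, enzymes of the cholesterol pathway, were opposite, EBP from 2872 and 2618 to 1349 and 1172 in KYSE180 and from 908 and 897 to 1321 and 1329 in TE6 (differences -1.68 ± 0.15 and -1.62 ± 0.17, adjusted p = 1.6e-07 and 8.9e-07, and -0.76 and -0.93 with the trend removed). Of 21 genes of endoplasmic reticulum chaperones and the unfolded protein response, 5 were higher and 5 lower, near the 27.0% and 28.4% of all genes. SDF2L1, a chaperone cofactor, fell in KYSE180 only, from 1798 and 1522 to 454 and 394, CRELD2 was opposite, and SEL1L, which clears misfolded proteins, was opposite in the other direction (differences -1.90 ± 0.17, -1.48 ± 0.22 and 1.47 ± 0.17, adjusted p = 1.7e-07, 2.4e-05 and 2.4e-06, and -0.63, -1.08 and 0.70 with the trend removed).

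Clustered histone genes, whose main transcripts lack a poly(A) tail and are under-represented in poly(A) selected libraries, were called in both directions. Of 21 tested, 8 fell and 6 rose in KYSE180, 8 fell and none rose in TE6, and 7 differences were higher and 4 lower (9 and 0 of 19 with the trend removed). HIST2H2BE rose from 51.9 and 57.5 to 202 and 223 in KYSE180 and fell from 66.8 and 58.6 to 29.2 and 35.5 in TE6 (difference 2.88 ± 0.29, adjusted p = 5.6e-07). HIST1H2BK was opposite in the same direction (difference 2.02 ± 0.22, adjusted p = 1.1e-06, and 3.20 with the trend removed), and HIST1H2AC rose in KYSE180 only (difference 1.999 ± 0.34, adjusted p = 8.4e-05). HIST2H2AC fell in KYSE180 only, from 107 and 83.2 to 16.9 and 27 (difference -1.86 ± 0.37, adjusted p = 3.6e-04), which was not called with the trend removed (-0.68, adjusted p = 0.15). Histone genes are near-identical copies, so reads may have been split or lost between them.

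As p63 shares its DNA motif with p53, the p53 family targets were examined. Of 25 tested, 10 fell and 3 rose in KYSE180, and 10 fell and 4 rose in TE6. Of them 7 fell in both, against 6.70% of all genes. The differences were higher for 5 and lower for 7 in KYSE180, near or under the shares of all genes (27.0% and 28.4%). FDXR, a mitochondrial reductase, fell from 5703 and 4040.0 to 1361 and 1079 in KYSE180 and overlapped in TE6 at 992 and 916 and 934 and 974 (difference -1.99 ± 0.20, adjusted p = 5.4e-07). BAX, which permeabilises mitochondria in apoptosis, fell in KYSE180 only, from 4338 and 3590.3 to 1550.0 and 1266 (difference -1.54 ± 0.18, adjusted p = 1.7e-06, and -0.62 with the trend removed). RRM2B, a ribonucleotide reductase subunit, rose from 184 and 183 to 261 and 272 in KYSE180 and fell from 463 and 553 to 234 and 237 in TE6 (difference 1.64 ± 0.19, adjusted p = 1.6e-06, and 0.90 with the trend removed). TP53I3 rose in TE6 only, from 145 and 127 to 502 and 363 (difference -1.62 ± 0.21, adjusted p = 4.9e-06, and -0.80 with the trend removed). None of the 3 BET genes tested was called in either line, and BRD2, a ubiquitous relative of BRDT, was the 1 with a called difference (0.55 ± 0.13, adjusted p = 0.002), under the size limit at 0.34 with the trend removed.

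The classes were then read in KYSE150, a BRDT-negative ESCC line with its own siTP63 and siCont libraries that took no part in choosing them. Genes that fell in both KYSE180 and TE6 had a median log2 difference of -0.60 in KYSE150, with 86.4% of them below 0, and those that rose in both had 0.56, with 16.5% below 0. The genes opposite in the 2 lines were near 0 in KYSE150, at a median of 0.01 (47.5% below 0) for those down in KYSE180 and 0.03 (46.2% below 0) for those down in TE6. All genes tested had a median of 0, with 49.6% below 0. Genes of 1 line only lay in between. Those that fell in KYSE180 only were at -0.23 and those that fell in TE6 only at -0.26, while those that rose in KYSE180 only were at 0.26 and those that rose in TE6 only at 0.24. For single genes, KYSE150 had a log2 difference of -1.30 for KRT5, -1.91 for FST, -0.08 for ITGB1, -0.26 for HIF1A, 0.40 for EHF and 0.03 for RPS12.

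Knockdown of BRDT in the same lines gave a second view. In KYSE180, from siBRDT and siCont libraries of another experiment, genes that fell in KYSE180 and rose in TE6 upon TP63 knockdown had a median log2 difference of 0.15 and their counterparts -0.17, against -0.01 over all genes tested. For ITGB1 the value upon BRDT knockdown was -1.16 in KYSE180 and -2.10 in TE6, for HIF1A -0.84 and -2.37, for RPS12 0.11 and 0.82, and for KRT5 -1.02 and -1.49. The TE6 siBRDT and siTP63 comparisons share their control libraries, so their values are given side by side only. TP63 itself stood at -0.58 in KYSE180 and -1.15 in TE6 upon BRDT knockdown.

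The labelled cell type was checked against its markers. TP63, KRT5, KRT14, KRT6A, DSG3 and SOX2 were read in all 8 libraries, the lowest value being 77.6 for KRT14. Of 14 markers of leukocytes, fibroblasts and endothelium, only CD68, COL1A1, COL3A1 and VWF reached a mean of 10 in both tables. The summed level of all 14 markers was 1142 to 1225 in KYSE180 siCont, 1095 to 1254 in KYSE180 siTP63, 776 to 826 in TE6 siCont and 511 to 533 in TE6 siTP63. PTPRC, the pan-leukocyte antigen, was at 0 to 1.57, PECAM1 at 0 to 1.72 and DCN, a fibroblast proteoglycan, at 0 to 1.57. COL1A1, a fibrillar collagen, had values of 234 to 893 and a difference of 0.56 ± 0.20 (adjusted p = 0.022). This call was lost without KYSE180 siCont replicate 2 (0.47), KYSE180 siTP63 replicate 1 (0.42), TE6 siCont replicate 1 (0.43) or TE6 siTP63 replicate 1 (0.44). VWF, an endothelial clotting factor, had 20.5 to 136 and rose in both lines (difference 1.44 ± 0.36, adjusted p = 0.0025).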

How the data were processed

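RNA-seq libraries of TP63 knockdown in KYSE180 and TE6 were analysed, with 2 siTP63 and 2 siCont libraries per line. The study transfected the cells with siRNAs by Lipofectamine RNAiMAX, extracted RNA with QIAzol 48 hours later and prepared poly(A) libraries with the TruSeq RNA V2 kit. The submitters' processing notes name STAR 2.6.0, HTSeq 0.11.2, DESeq2 1.24.0 and hg38. The gene annotation and strand setting are not given in the sources used here. The authors deposited a signal for each gene symbol, namely read counts divided by DESeq2 size factors within each of the experiments, so values of separate tables are not on 1 scale and fold changes were taken only within a table. Whole reads were recovered from the value steps for 100% of values at a tolerance of 0.01, and gave 7582089 to 17331345 reads per library.

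Values were analysed as log2(value + 1) in limma 3.58.1 (R 4.3.3) with 4 group means over 8 libraries and a mean-variance trend. The contrast was the KYSE180 fold change minus the TE6 fold change, and p-values were adjusted by Benjamini-Hochberg over 12711 genes with a mean of at least 10 in both tables. A fold change on this scale understates the change of low genes. Genes were called at an adjusted p under 0.05 and at least 0.5 on the log2 scale. The script was tested on simulated data. Gene positions, transcript length and GC content came from GENCODE release 44, which matched 92.7% of 26485 symbols and 12471 of the genes tested. Length and GC trends were removed per library by splines with 4 degrees of freedom.

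The genes and lists were chosen with earlier results of these data known. Named were TP63, BRDT, KRT14, FAT2 and PTHLH, then, among genes with a mean of at least 100 and groups that do not overlap where called, the 5 largest differences in each opposite class and the 4 largest in each class of 1 line, and up to 3 called members per list and direction with a mean of at least 50 in either table. Not every gene that the last part selects is described, and 1 gene so selected is not reported here. Alternatives were a pseudocount of 0.1, other filters, scalings and fold-change limits, the replicate block, removal of the trend, each table fitted alone, edgeR 4.0.16 and DESeq2 1.42.0 on recovered reads, and each library left out. Same-numbered libraries deviated from their group means with correlations of 0.069 in KYSE180 and 0.013 in TE6, so they were not treated as pairs. Sequences came from the study's siRNA list and from RefSeq (GRCh38.p14). The libraries of BRDT overexpression in KYSE150 were not used here.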

Additional observations from a re-analysis of the deposited data

Results flagged for a closer look

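Results are gathered here because the effect of TP63 knockdown differed between the lines by a test of the difference itself, limma's contrast of the 2 fold changes at an adjusted p under 0.05 and at least 0.5 in size. The counts behind them were 3436 genes higher and 3605 lower in KYSE180, with 482 and 567 opposite genes, 1688 and 1124 genes down or up in KYSE180 only and 1002 and 769 down or up in TE6 only. Depth of knockdown (30.6% of TP63 left in KYSE180 and 4.57% in TE6) moved with the line in all of them, and its part in the differences was not tested. The values are differences of log2 fold changes, KYSE180 minus TE6. No group held 4 samples, so no library was tested for standing apart from its group.

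Among genes that fell in KYSE180 and rose in TE6, the difference was -2.79 for UQCC3, -2.77 for ZNF593, -2.70 for C7orf50, -2.62 for C12orf45, -2.62 for JOSD2, -2.47 for ATP5D, -2.40 for RPS19, -2.38 for RPS12 and -2.37 for RPS21. For others of this opposite kind it was -2.24 for NDUFS6, -2.23 for NDUFA13, -2.19 for PSMB10, -1.99 for SNHG7, -1.80 for ADM, -1.68 for EBP, -1.67 for CRB3, -1.62 for MVD and -1.56 for DDIT3. The last of them stood at -1.54 for CSTA, -1.48 for CRELD2, -1.41 for TALDO1, -1.39 for S100A13, -1.35 for COL9A2, -1.30 for TEAD4 and -1.12 for CLDN7.

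Genes that rose in KYSE180 and fell in TE6 differed by 3.32 for PDP1, 3.02 for ZBTB38, 2.97 for MORC3, 2.92 for HIF1A, 2.88 for HIST2H2BE and 2.87 for SLC39A10. The same direction was seen at 2.79 for CXCL8, 2.77 for DUSP4, 2.58 for ITGB1, 2.22 for KLF5 and 2.02 for HIST1H2BK. Further such genes differed by 1.92 for CLDN1, 1.84 for FOXE1, 1.80 for SERPINB5, 1.67 for TXNRD1, 1.65 for TJP1 and 1.64 for RRM2B. To these add 1.63 for LAMA3, 1.47 for SEL1L, 1.45 for TGM1 and 1.04 for COL17A1.

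For falls in KYSE180 alone the value was -3.09 for SNCG, -2.93 for CCDC85B, -2.78 for NME1, -2.64 for C17orf89, -2.31 for WNT11, -1.99 for FDXR, -1.90 for SDF2L1, -1.87 for SNHG8, -1.87 for GINS2, -1.86 for HIST2H2AC and -1.70 for PIR. Smaller or similar falls there gave -1.68 for SNHG16, -1.54 for BAX, -1.35 for TPM2, -1.34 for MCM5, -1.30 for TPI1, -1.12 for KRT18, -1.03 for PKP3, -1.01 for PITX1, -0.996 for KRT8 and -0.95 for CD151.

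Rises in KYSE180 alone gave 3.12 for MX1, 3.02 for IFIT2, 2.52 for EHF, 2.51 for RTN4RL1, 2.49 for EGF, 2.43 for TRPS1, 2.42 for TGFBR2 and 1.999 for HIST1H2AC. More of these rises gave 1.84 for VCL, 1.79 for PLAU, 1.73 for WNT5A, 1.71 for NOTCH3, 1.71 for CALD1, 1.59 for NEAT1, 1.58 for ITGB8 and 1.54 for SMAD3. Other rises there gave 1.46 for CTH, 1.44 for NOTCH2, 1.18 for TNFAIP2, 1.12 for ERAP1, 1.06 for CDH1, 1.03 for MMP14, 1.02 for CELSR1 and 0.78 for VEGFA.

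Falls in TE6 alone appeared as 2.59 for LRP12, 2.58 for LIPA, 2.56 for EFR3A, 2.37 for UHMK1, 1.91 for ECT2, 1.85 for ANLN, 1.85 for HMMR and 1.75 for COL4A1. Others that fell in TE6 alone had 1.73 for IER3, 1.69 for DSG2, 1.59 for IFI16, 1.57 for DSC2, 1.57 for DSP, 1.57 for GCLC, 1.53 for DST and 1.38 for AXL. Still others had 1.36 for TEAD1, 1.31 for JAG1, 1.28 for SDHD, 1.23 for EGFR, 1.17 for FAT1, 1.16 for ITGA3 and 0.64 for RPL7L1.

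Rises in TE6 alone appeared as -3.02 for SERPINB6, -2.25 for STYXL1, -2.06 for NR1H3, -2.05 for AAMDC, -2.04 for CHMP4A, -1.82 for CYR61 and -1.71 for IFI35. More of them had -1.67 for S100A10, -1.62 for TP53I3, -1.54 for NUPR1, -1.52 for BST2, -1.45 for PHGDH, -1.17 for HES4, -1.11 for RFNG, -1.08 for HES1, -1.05 for PSMB9 and -0.86 for OVOL2.

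Genes that moved the same way in both lines, or were called in neither, differed by 4.19 for SOST, -3.37 for FST, 2.87 for FAT2, 2.74 for TP63, 2.63 for IFI27, 2.50 for KRT14 and 2.46 for KRT5. In the same group the values were -2.32 for ISG15, 2.09 for SCEL, -2.05 for S100A2, 1.88 for ITGA2, -1.79 for PTTG1, -1.497 for ICAM1 and 1.44 for VWF. Next came -1.42 for NRG1, 1.40 for TIMP2, 1.39 for KRT6C, -1.25 for CDC45, -1.23 for DKK3, 0.98 for POLA1 and -0.89 for KRT4. Closer to 0 were 0.85 for KRT80, -0.72 for CCNB2, -0.72 for AURKB, 0.56 for COL1A1 and 0.55 for BRD2.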

How the results depend on the processing

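Of 252 recomputed counts, 234 lay within 1.5 times the reported value. A fold-change limit of 1 lowered the called differences to 1947 higher and 2000 lower in KYSE180, the calls in KYSE180 to 1491 down and 1252 up, and those in TE6 to 1053 down and 886 up. The opposite classes then held 20 genes down and 53 up in KYSE180, and the classes of 1 line 921 down and 568 up in KYSE180 and 517 down and 301 up in TE6. With no limit the opposite classes held 1135 and 1021 genes, and with the length and GC trend removed 273 and 270 (273 and 268 with the replicate block). edgeR gave 3859 differences higher and 3218 lower, with 415 and 698 opposite genes, and DESeq2 gave 3230 and 3387, with 470 and 550. Within a line, edgeR called 2918 genes down and 3534 up in KYSE180 and 2770 down and 2448 up in TE6. Upper quartile scaling gave 3033 down and 3325 up in KYSE180 and 2426 down and 2775 up in TE6. Whether more genes fell or rose within a line thus depended on the processing. Leaving out each library in turn gave 2924 to 3616 differences higher and 3182 to 3663 lower in KYSE180, 3103 to 3515 genes down and 2439 to 3049 up in KYSE180, 2414 to 2830 down and 2115 to 2493 up in TE6, and 394 to 547 and 389 to 622 opposite genes. The classes of 1 line ranged over 1485 to 1775 down and 848 to 1249 up in KYSE180 and over 850 to 1014 down and 685 to 795 up in TE6. As samples share only a number, the replicate block is given here alone. It gave 3445 higher and 3623 lower differences and 479 and 571 opposite genes.

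The difference was recomputed for 159 of the named genes, and 137 kept their direction and their side of the threshold under all 21 alternatives. The difference of AURKB turned to 0.17, that of HES4 to 0.33 and that of BRDT, never called, to -0.27 with the trend removed, with and without the block. BRDT ranged from -0.017 to 0.10 and PTHLH, also not called, from -0.031 to 0.21 when libraries were left out, and the 1 reversed value of PTHLH was that without KYSE180 siTP63 replicate 1. The 13 list medians drawn in the plot of lists never changed sign under their 18 alternatives. This does not hold for the lists left out of that plot. With the trend removed, the median difference changed sign in several of them. Among these were simple keratins (-0.37 to 0.57), Wnt genes (-0.26 to 0.53), cornified envelope genes (-0.44 to 0.30), S100 proteins (-0.25 to 0.42) and Notch genes (-0.33 to 0.07). The cause of these changes was not tested. With 2 libraries per group, each fit without a library assumes that the lone one varies like the rest, and spread between cultures was not measured.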

Other observations

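The membership rule left out 1213 genes that reached a mean of 10 in the KYSE180 table only and 524 in the TE6 table only, and 3 of them are given as examples chosen after their values were seen. IRF7, a transcription factor that amplifies interferon responses, was at 0 to 6.9 in KYSE180, but at 320.0 and 244 in TE6 siCont and 1181 and 1330.2 in TE6 siTP63. VIM, the mesenchymal intermediate filament vimentin, was at 371 and 299.8 in TE6 siCont and 378 and 323 in TE6 siTP63, with overlapping groups, and at 0.77 to 4.77 in KYSE180. ITGAV, the αv chain of integrins, was at 305 and 269 in KYSE180 siCont and 498 and 591 in KYSE180 siTP63, and at 0 to 1.72 in TE6. No test was run on these genes, and the tables were normalised separately.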
